A study of Mus musculus with 15 samples.

Results

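Atrial muscle transcripts were measured in all 15 of the 15 mouse heart libraries of the study, each labelled as ventricle. Every library was scored by the mean log2(FPKM + 1) of 4 genes known to be far more abundant in atrial than in ventricular muscle, Sln, Myl4, Myl7 and Bmp10 (FPKM, fragments per kilobase of transcript scaled to the mapped total), and the other genes were then read against that score within the treatment groups. No library was left out, and AngII replicate 2, which is set aside in some results, was chosen by its FPKM of these 4 genes, the highest of all libraries. The hearts came from wild-type C57BL/6 mice aged 10 weeks, in 3 groups of 5 that the labels call biological replicates. One group received saline vehicle, one received angiotensin II (AngII, a pressor peptide) by pump at 1000 ng/kg/min, and one received the same AngII plus OA, which stands for oleic acid, at 160 mg/kg, given as 0.3 mL per mouse per day. Libraries were made from poly(A)-selected RNA.

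Atria and ventricles of the adult mouse heart share most of their contractile machinery but use different paralogs for part of it. Atrial muscle carries the light chains Myl7 and Myl4 and sarcolipin (Sln), a small regulator of the calcium pump, where ventricular muscle carries Myl2, Myl3 and phospholamban (Pln). Atrial muscle is also the main store of natriuretic peptide A (Nppa), which ventricular muscle makes again under load, and Bmp10, a secreted growth factor of the BMP family, is known in the adult mouse mainly from the right atrium.

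The 250 bases before the start of the atrial genes Myl7, Bmp10 and Nppa are shown because these 3 genes followed different patterns across the libraries (below), together with those of Myl3, a ventricular light chain, for contrast. They are RefSeq sequences on GRCm38.p6, 5′ to 3′ on the strand of the gene, at chr11:5898783-5899032 (minus strand), chr6:87428744-87428993, chr4:148000472-148000721 and chr9:110763428-110763677 (plus strand). Capitals mark every match, on either strand, to the GATA core GATAA, the T-box core GGTGT, the Nkx core AAGTG and the CArG box, the serum response factor motif; no matches overlapped.
Myl7: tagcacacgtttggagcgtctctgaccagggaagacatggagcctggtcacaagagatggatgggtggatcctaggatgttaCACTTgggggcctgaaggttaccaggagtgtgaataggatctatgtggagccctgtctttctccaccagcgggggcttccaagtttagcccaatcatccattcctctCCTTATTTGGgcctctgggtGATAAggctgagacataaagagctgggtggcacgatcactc
Bmp10: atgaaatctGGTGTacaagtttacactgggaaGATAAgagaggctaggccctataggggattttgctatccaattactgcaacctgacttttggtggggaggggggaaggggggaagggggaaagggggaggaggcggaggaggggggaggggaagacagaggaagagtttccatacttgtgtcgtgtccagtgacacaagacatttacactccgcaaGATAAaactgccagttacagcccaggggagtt
Nppa: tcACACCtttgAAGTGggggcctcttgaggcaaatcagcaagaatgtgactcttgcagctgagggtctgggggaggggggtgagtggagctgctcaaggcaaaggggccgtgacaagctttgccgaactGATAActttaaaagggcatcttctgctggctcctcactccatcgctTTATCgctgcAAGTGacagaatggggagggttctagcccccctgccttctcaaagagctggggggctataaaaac
Myl3: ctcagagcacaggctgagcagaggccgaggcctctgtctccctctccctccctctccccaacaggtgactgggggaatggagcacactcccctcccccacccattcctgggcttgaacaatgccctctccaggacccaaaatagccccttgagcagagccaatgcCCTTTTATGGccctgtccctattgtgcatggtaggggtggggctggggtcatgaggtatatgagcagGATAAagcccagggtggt

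All 4 windows held a GATA core, which 22.6% of the 32851 promoter windows of this length in the RefSeq table held. Myl7 and Myl3, the atrial and the ventricular light chain, each held a CArG box, 61 and 85 bases before the start, against 1.47% of all windows. Bmp10 and Nppa each held a T-box core, present in 36.2% of all windows, and Myl7 and Nppa held Nkx cores, present in 40.7%. The Myl3 window held neither of the last pair. These 4 windows were chosen and do not stand for the wider lists used below, where 14 atrial and 13 ventricular muscle genes had a window. Of these, 5 and 5 held a GATA core and 0 and 2 a CArG box. A T-box core was held by 10 and 6, and an Nkx core by 5 and 8. Such matches describe sequence and are not binding sites. Of the 4 score genes, 3 had an entry in the table, and Sln had none.

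The scores spanned a wide range within every group and fell into 3 sets. In vehicle hearts the scores were 0.70, 4.02, 4.37, 5.61 and 5.99 for replicates 1 to 5. In AngII hearts they were 2.69, 8.33, 4.43, 5.37 and 0.68. In AngII + OA hearts they were 3.95, 0.52, 3.24, 5.89 and 5.63. Each group held 1 library below 1, the 11 libraries of intermediate score lay between 2.69 and 5.99, and AngII replicate 2 stood alone at 8.33. Group means were 4.13 ± 2.09 (SD, n = 5) for vehicle, 4.30 ± 2.88 for AngII and 3.84 ± 2.17 for AngII + OA, so the group means differed by far less than the replicates of any one group. Because these genes defined the score, their levels are described without a test.

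**Figure D1:**
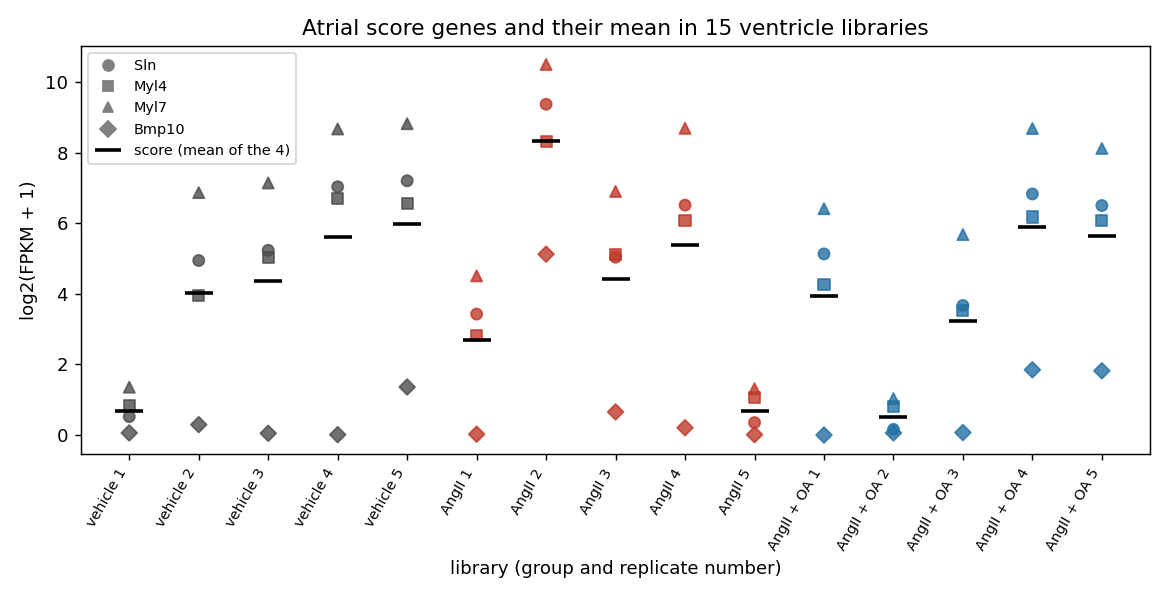
log2(FPKM + 1) of the 4 score genes in each library, coloured by group (grey vehicle, red AngII, blue AngII + OA), with the score as a black bar. One library of each group sits below 1, and AngII replicate 2 is above all others at 8.33.

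Myl7, the atrial regulatory light chain, was at 1.56, 115.9, 140.2, 406.7 and 451.1 FPKM in vehicle replicates 1 to 5. In AngII replicates it was at 21.8, 1446, 118.5, 412.0 and 1.49 FPKM. In AngII + OA replicates it was at 84.2, 1.05, 50.2, 410.6 and 277.3 FPKM. The 3 groups overlapped over almost their whole range, and the lowest library of each group, at 16 to 24 recovered reads, was at 1.56 FPKM or less against 21.8 FPKM or more in the other 12. Set against its ventricular counterpart Myl2, Myl7 made up 0.0135% to 0.0267% of the summed Myl7 and Myl2 FPKM in those 3 libraries, 0.419% to 7.99% in the 11 intermediate ones and 36.15% in AngII replicate 2.

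Sln and Myl4 rose and fell with Myl7, though Myl4 was higher relative to Myl7 at the lowest scores. The ratio of Myl4 to Myl7 FPKM was 0.509, 0.726 and 0.732 in the lowest vehicle, AngII and AngII + OA libraries. In the 11 intermediate libraries this ratio was 0.125 to 0.282. Sln ran from 0.117 FPKM in AngII + OA replicate 2 to 661.7 FPKM in AngII replicate 2, and Myl4, the atrial essential light chain, from 0.767 to 319.1 FPKM in the same libraries. Within groups, each correlated with the mean of the other score genes at r = 0.99 for Sln, 0.99 for Myl4 and 0.96 for Myl7 over 15 libraries. These values describe genes chosen to go together and share library and depth.

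Bmp10 did not keep pace with the muscle proteins. It was at 0.0427, 0.227, 0.0348, 0.00832 and 1.57 FPKM in vehicle replicates 1 to 5, and at 0.0169, 33.9, 0.575, 0.155 and 0.00813 FPKM in AngII replicates. In AngII + OA replicates it was at 0, 0.0430, 0.04995, 2.60 and 2.53 FPKM, where the 0 of replicate 1 allows up to 3 reads, or 0.0263 FPKM. A set of 4 libraries with nearly the same Myl7 level differed widely: vehicle replicate 4 had 1 Bmp10 read, AngII replicate 4 had 17, vehicle replicate 5 had 173 and AngII + OA replicate 4 had 310. Bmp10 per 1000 FPKM of Myl7 was accordingly 0.0205 in vehicle replicate 4 and 6.33 in AngII + OA replicate 4, and it was 23.4 in AngII replicate 2. Its within-group correlation with the mean of the other score genes was 0.64 over 15 libraries and 0.57 without AngII replicate 2.

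**Figure D2:**
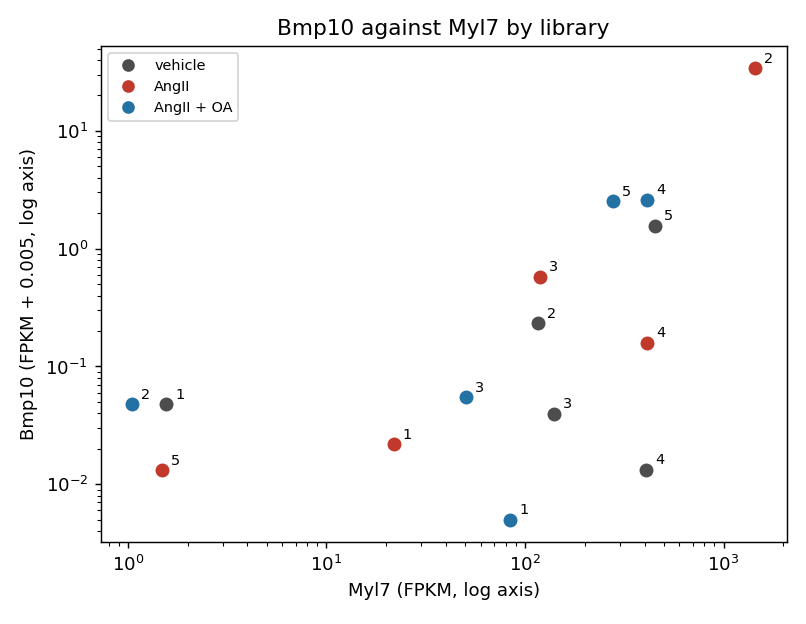
Bmp10 (FPKM + 0.005) against Myl7 (FPKM), both on log axes, 1 point per library numbered by replicate and coloured by group. Libraries near 400 FPKM of Myl7 spread over more than 2 decades of Bmp10, and AngII replicate 2 is highest on both axes.

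By the scale of its FPKM values each library had 24470000 to 28270000 mapped fragments. Mitochondrially encoded genes took 34.5% to 50.02% of summed FPKM, and AngII replicate 2 was the highest AngII library at 48.3%. The ventricular markers Myl2 and Myl3 were abundant in every library, at 2555 to 7777 and 1219 to 3338 FPKM, with AngII replicate 2 lowest for both. In bulk tissue, fewer cells of a type and less RNA per cell cannot be told apart.

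The first question was which other genes moved with the score once group means were removed. A slope here is the difference in log2(FPKM + 1) per unit of score, from limma with group in the model, and a gene is called at a Benjamini-Hochberg adjusted p below 0.05. Over 15 libraries 64 of 13117 genes were called (0.488%), of which 59 rose with the score (0.45%) and 5 fell (0.0381%). Without AngII replicate 2 the count was 15 (0.114%), 14 rising (0.107%) and 1 falling (0.00762%), and 12 genes were called in both, 18.8% of the first set and 80.0% of the second. All 64 kept their direction and an unadjusted p under 0.05 (limma) without that library. The fit that picked them already included the remaining libraries, so this is a description and not a separate test. Of the 59 that rose, 46 were highest in AngII replicate 2, beside 20.4% of all genes tested, and its values entered these calls. Other single libraries also moved these counts. The 15-library count was 42 without vehicle replicate 1, 31 without AngII replicate 1, 31 without AngII + OA replicate 2 and 30 without AngII + OA replicate 4. With AngII replicate 2 already left out, it was 3 without vehicle replicate 1, 9 without vehicle replicate 4, 33 without AngII replicate 5, 10 without vehicle replicate 5, 10 without AngII + OA replicate 3, 6 without AngII + OA replicate 2 and 7 without AngII + OA replicate 4.

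Of the 20 other atrial muscle genes listed, 17 were abundant enough to test, and 4 rose with the score over 15 libraries: Mybphl, Dkk3, Fgf12 and Stard10. None fell. The median slope of the 17 was 0.06, against -0.0035 over all genes tested, and 14 slopes were above 0. Without AngII replicate 2, 3 of the 17 rose (Mybphl, Fgf12 and Stard10) and the median was 0.07.

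Mybphl, a myosin-binding protein of atrial muscle, followed the score most closely. It was at 0.210, 2.68, 7.14, 24.5 and 19.8 FPKM in vehicle replicates 1 to 5. AngII replicates had 1.10, 67.6, 8.73, 21.3 and 0.0572 FPKM, and AngII + OA replicates had 5.89, 0.212, 2.29, 18.4 and 15.5 FPKM. The 3 libraries of lowest score were the 3 lowest for Mybphl, and AngII replicate 2 was the highest. Its slope was 0.82 (SE 0.05, limma adjusted p = 9.91e-07) over 15 libraries and 0.84 (SE 0.06) without AngII replicate 2. Taken in 1 group at a time it was 0.83 in vehicle, 0.84 in AngII and 0.76 in AngII + OA.

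Stard10, a phospholipid-transfer protein, changed over a narrower range. It was at 6.29, 13.2, 10.1, 19.7 and 21.2 FPKM in vehicle replicates, 5.39, 41.7, 8.22, 13.6 and 5.54 in AngII replicates and 9.04, 7.21, 7.22, 13.99 and 18.0 in AngII + OA replicates. It was still at 5.54 to 7.21 FPKM in the 3 libraries with almost no Myl7. The slope was 0.31 (SE 0.04, limma adjusted p = 0.00298) and 0.25 (SE 0.04) without AngII replicate 2.

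Fgf12, an intracellular modulator of sodium channels, ranged from 0.0625 to 6.57 FPKM, with the 3 low-score libraries at 0.0834 FPKM or less. Its slope was 0.36 (SE 0.04) over 15 libraries and 0.33 (SE 0.05, limma adjusted p = 0.022) without AngII replicate 2. Dkk3, a secreted protein of the Dickkopf family, was at 80.6 FPKM in AngII replicate 2 and at 1.004 to 15.1 FPKM elsewhere. Its call was lost without that library: the slope was 0.42 (SE 0.07, limma adjusted p = 0.0176) with it and 0.35 (SE 0.08, adjusted p = 0.142) without. AngII replicate 5 had 13.1 FPKM of Dkk3 beside 1.49 FPKM of Myl7.

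Nppa did not pass the test. It was at 14.1, 10.5, 24.4, 79.4 and 58.2 FPKM in vehicle replicates 1 to 5. In AngII replicates it was at 40.7, 585.1, 54.1, 84.8 and 97.3 FPKM, and in AngII + OA replicates at 24.7, 48.1, 25.3, 76.4 and 61.0 FPKM. In vehicle hearts the 2 libraries of highest score were also the 2 highest for Nppa, but AngII replicate 5 was second of the AngII hearts for Nppa while nearly lacking Myl7, Sln and Mybphl, and AngII + OA replicate 2 held 48.1 FPKM at the lowest score of all. The slope was 0.32 (SE 0.10, limma adjusted p = 0.217) over 15 libraries and 0.19 (SE 0.11, adjusted p = 0.781) without AngII replicate 2. By group the slope was 0.42 in vehicle, 0.36 in AngII and 0.13 in AngII + OA, and it was -0.05 in the 4 AngII libraries without replicate 2. The test of a difference between the groups' slopes gave adjusted p = 0.966 over 15 libraries and 1.0 over 14 (limma).

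**Figure D3:**
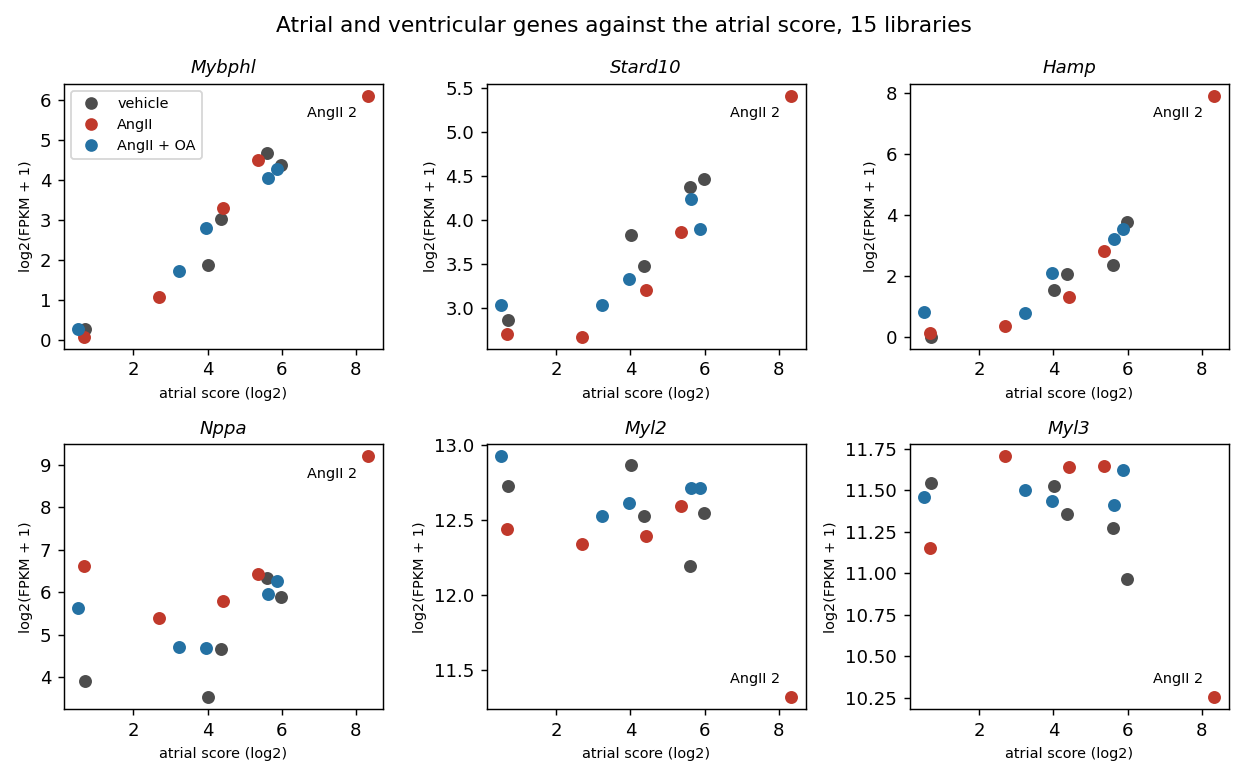
log2(FPKM + 1) of 4 genes of atrial muscle or called with the score (Mybphl, Stard10, Hamp, Nppa) and of the ventricular Myl2 and Myl3 against the atrial score, 1 point per library coloured by group; the vertical axes differ and do not start at 0. Mybphl rises along the whole score, Nppa is scattered at low scores, and Myl2 and Myl3 are lowest in AngII replicate 2.

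Of the other 12 atrial genes tested none was called, 9 had slopes above 0 over 15 libraries and 11 without AngII replicate 2. The potassium channel subunit Kcnj3, which carries the acetylcholine-gated current, had a slope of 0.14 (SE 0.04, limma adjusted p = 0.134), and 0.15 without that library. Pam, the enzyme that amidates peptide hormones and an abundant protein of atrial granules, had 0.17 (SE 0.04, limma adjusted p = 0.112), and 0.12 without it. Kcnj5, the partner of Kcnj3, had 0.06 with and 0.12 without AngII replicate 2, the connexin Gja5 0.02 and 0.07 (SE 0.02, limma adjusted p = 0.35), and the T-box factor Tbx5 0.08 and 0.02. Nr2f1 and Nr2f2, nuclear receptors that set atrial identity, had 0.02 each in both fits, and the calcium channel Cacna1h 0.04 and 0.03. The sign turned without that library for Hey1 (-0.01 to 0.02), the potassium channels Kcnk3 (-0.05 to 0.01) and Kcna5 (-0.19 to 0.00), and Nppb, natriuretic peptide B (0.02 to -0.03). Vsnl1 and Cacna1d were below the mean of 0.5 FPKM needed for testing.

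None of the 15 ventricular muscle genes tested, of 16 listed, was called by limma in either fit, against 0.488% and 0.114% of all genes; 2 of the 15 had an unadjusted p under 0.05 in each, beside 12.9% and 7.4% of all genes. Over 15 libraries 11 of 15 slopes were below 0, with a median of -0.03. Without AngII replicate 2 the signs divided 9 above and 6 below, with a median of 0.01. Over 15 libraries 11 of 15 slopes were also below 0 after quantile normalization, and 11 of 15 after scaling to nuclear-encoded genes alone.

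Myl2, the ventricular regulatory light chain, was at 4683 to 7471 FPKM in vehicle hearts and 5904 to 7777 in AngII + OA hearts. AngII replicates had 5186, 2555, 5391, 6194 and 5568 FPKM. The slope was -0.09 (SE 0.03, limma adjusted p = 0.301), and without AngII replicate 2 it was -0.03 (SE 0.03). Myl3, the ventricular essential light chain, had 3338, 1219, 3192, 3210 and 2280 FPKM in AngII replicates and slopes of -0.08 and 0.00. Pln had -0.04 and 0.01, and Myh7, the slow myosin heavy chain, -0.07 and -0.04. Irx3, a homeobox factor of the ventricular conduction system, had the lowest slope of the list at -0.11 (SE 0.03, adjusted p = 0.144), and -0.12 (SE 0.03) without AngII replicate 2.

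The remaining ventricular genes had slopes between -0.09 and 0.03 over 15 libraries, and several turned sign without AngII replicate 2: Fhl2 (-0.09 to 0.04), Lbh (-0.06 to 0.03), Kcnip2 (-0.03 to 0.04) and Irx1 (-0.02 to 0.01). Prdm16 went from 0.01 to 0.06 (SE 0.02, limma adjusted p = 0.531), Irx4 from 0.02 to 0.05, Irx2 from 0.00 to 0.02, Mylk3 from 0.03 to 0.06, Hey2 from -0.01 to -0.02, and Irx5 had -0.02 in both fits. Hand1 was too low to test. Of the 18 genes of working muscle in both chambers, such as Myh6, Tnnt2 and Actc1, none was called in either fit. At an unadjusted p under 0.05 (limma) there were 6 and 2 of them, beside 12.9% and 7.4% of all genes. Mb and Actc1, the 2 most abundant of the 18, had slopes of -0.05 and -0.13, which were -0.01 and -0.06 without AngII replicate 2.

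**Figure D4:**
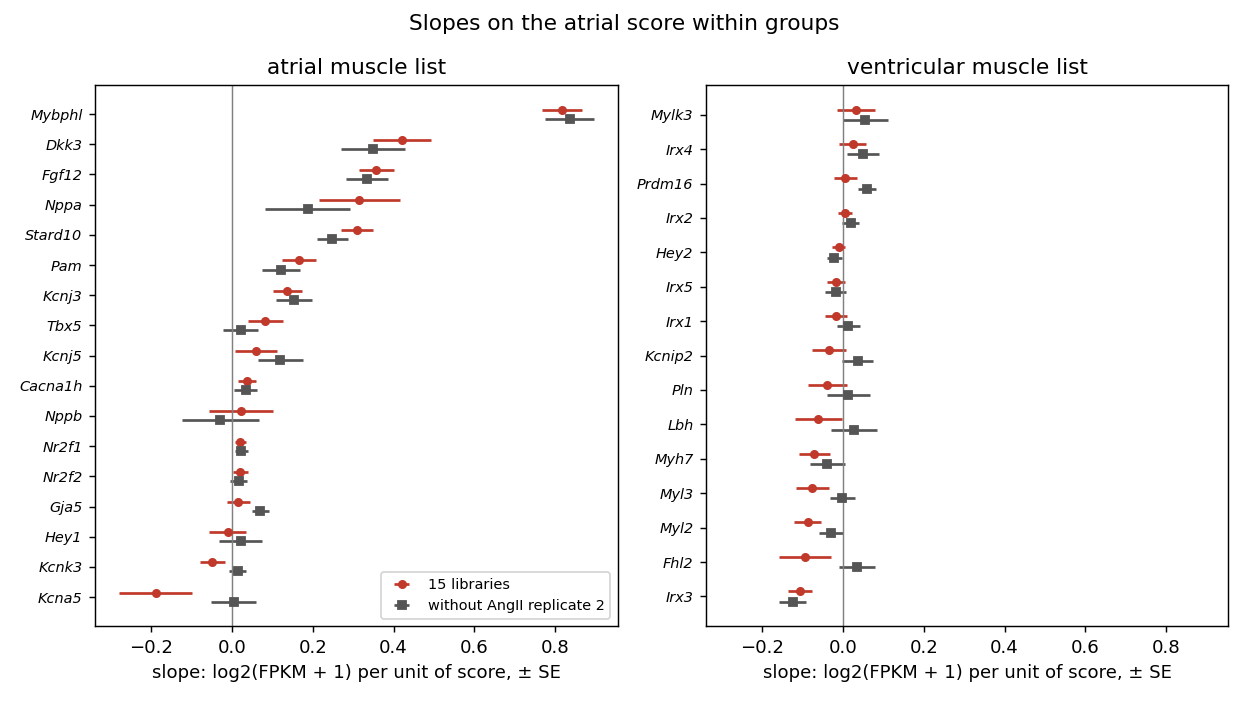
Slopes on the score (log2(FPKM + 1) per unit, ± SE) for the tested atrial (left) and ventricular (right) muscle genes, in red for 15 libraries and in grey without AngII replicate 2. Mybphl, Dkk3, Fgf12, Nppa and Stard10 lie to the right, and the ventricular genes lie around 0, with those of most negative slope moving towards 0 without AngII replicate 2, except Irx3.

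AngII replicate 2 thus stood apart in both directions. Of the 15 ventricular genes 10 were lowest in it, at a median of 0.542 times the mean of the other AngII hearts, and 11 of the 18 shared muscle genes were lowest, at a median of 0.618 times. Low values in this library went beyond those lists: 15 of 20 oxidative phosphorylation genes (median 0.651 times), 10 of 15 fatty acid oxidation genes (0.548) and 11 of 18 genes of calcium handling and excitation (0.5) were lowest in it, as were 28.4% of all genes tested, whose median was 0.875 times. The ventricular median was 0.579 when FPKM was scaled to nuclear-encoded genes alone. Of the 17 atrial genes 8 were highest in it and 3 were lowest, beside 20.4% and 28.4% of all genes tested.

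Genes of cells other than muscle moved with the score as well. Of the adipocyte genes, 4 of 10 tested rose with the score over 15 libraries: Cfd (adipsin), Car3 (carbonic anhydrase 3), Adipoq (adiponectin) and Retn (resistin). Only Cfd was called without AngII replicate 2, although the slope of Car3 was 0.52 with and 0.54 without that library (limma adjusted p = 0.109), while those of Adipoq and Retn went from 0.43 to 0.32 and from 0.26 to 0.17. Cfd was at 0.208, 7.85, 7.37, 8.13 and 5.11 FPKM in vehicle replicates, 1.84, 252.1, 4.02, 69.7 and 1.11 in AngII replicates and 12.9, 0.377, 6.52, 19.2 and 16.9 in AngII + OA replicates. The 3 libraries of lowest score were again the 3 lowest, and AngII replicates 2 and 4 were above every other library. The slope of Cfd was 0.79 (SE 0.10, limma adjusted p = 0.00298) and 0.69 (SE 0.12, adjusted p = 0.0356) without AngII replicate 2.

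Adipoq reached 23.4 and 10.2 FPKM in AngII replicates 2 and 4 and was at 0 to 2.24 FPKM elsewhere. Ucp1, the uncoupling protein of brown fat, was at 48.7 and 21.0 FPKM in the same libraries and at 1.02 FPKM or below in the other 13, with a slope of 0.44 (SE 0.14, limma adjusted p = 0.213). The summed adipocyte list was 90.8 to 122.4 FPKM in vehicle, 126.6 to 575.5 in AngII and 97.5 to 164.9 in AngII + OA hearts. Pnpla2 and Cidea, which are on that list, were at 17.2 FPKM or more in every library. Of the 10 slopes on the list, 9 were above 0 over 15 libraries and 8 without AngII replicate 2. Lipe had -0.08 in both fits, and Pnpla2 0.04 with and -0.02 without that library.

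Of the mesothelial and epicardial genes, which mark the serous lining of the heart, 4 of 8 tested rose over 15 libraries (Msln, Upk3b, Gpm6a and Krt19) and none was called by limma without AngII replicate 2, where 5 had an unadjusted p under 0.05. Msln, mesothelin, was at 0.0544, 0.289, 0.851, 2.42 and 1.39 FPKM in vehicle replicates. It was at 0.0537, 63.1, 0.636, 2.78 and 0.0518 in AngII replicates and 0.0744, 0.366, 0, 6.06 and 2.28 in AngII + OA replicates. Apart from AngII replicate 2, the libraries above 1 FPKM were the 5 others with a score over 5. Its slope was 0.55 (SE 0.11, limma adjusted p = 0.038) and 0.34 (SE 0.08, adjusted p = 0.154) without AngII replicate 2. Of the 8 slopes on this list, 7 were above 0 over 15 libraries and 6 without AngII replicate 2. Aldh1a2 had -0.12 with and -0.13 without that library, and Tbx18 0.02 and -0.02. The summed list was 7.04 to 18.9 FPKM in vehicle, 9.35 to 111.7 in AngII and 8.63 to 30.2 in AngII + OA hearts. The sum did not follow the score throughout, and was 22.4 FPKM in AngII + OA replicate 2, the library of lowest score.

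The B cell list had no call in 6 genes tested (limma), with Igkc and Ighm at slopes of 0.33 and 0.29. At an unadjusted p under 0.05 (limma) the list held 5 genes over 15 libraries and 3 without AngII replicate 2, beside 12.9% and 7.4% of all genes. Its sum was 165.0 FPKM in AngII replicate 2 and 4.51 to 37.9 FPKM elsewhere, nearly all from Igkc and Ighm, while Ms4a1 stayed below 1 FPKM in every library. Of the lung epithelium list, the surfactant gene Sftpc was at 0 in all but 1 library, while Scgb1a1, a club cell secretory protein, was at 27.8 FPKM in AngII replicate 4 and 9.10 FPKM in vehicle replicate 1, and Ager at 6.75 FPKM in AngII replicate 2. How far the fat, lining or blood cell genes account for any slope was not tested.

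**Figure D5:**
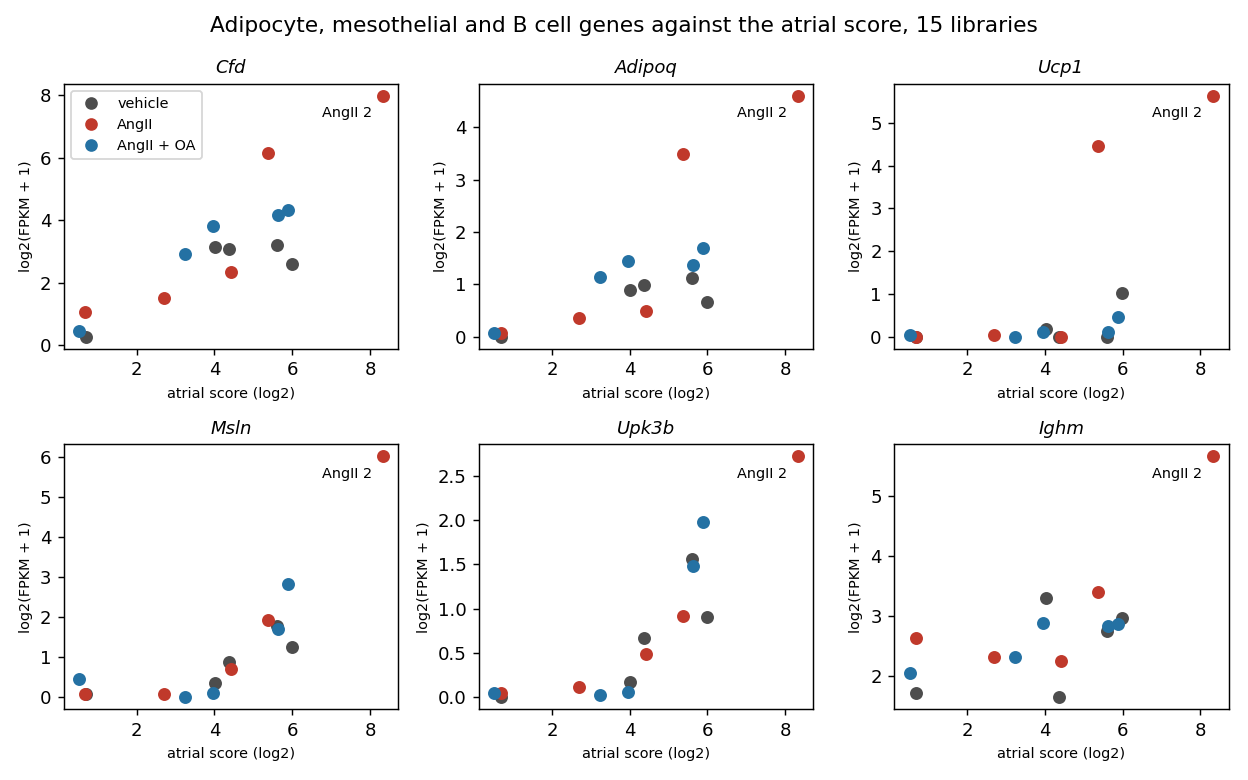
log2(FPKM + 1) of adipocyte (Cfd, Adipoq, Ucp1), mesothelial (Msln, Upk3b) and B cell (Ighm) genes against the atrial score, 1 point per library coloured by group. AngII replicate 2 is highest in every panel, and the second high red point for Cfd, Adipoq and Ucp1 is AngII replicate 4.

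Among single genes outside the lists, Hamp, which encodes the iron hormone hepcidin, rose in both fits. It was at 0, 1.89, 3.15, 4.10 and 12.5 FPKM in vehicle replicates, 0.277, 237.7, 1.47, 5.98 and 0.0891 in AngII replicates and 3.26, 0.754, 0.729, 10.6 and 8.12 in AngII + OA replicates. The slope was 0.79 (SE 0.11, limma adjusted p = 0.0056) and 0.56 (SE 0.07) without AngII replicate 2. With only the 11 libraries of intermediate score, a subset chosen after seeing the data, Hamp and Mybphl were the 2 genes called.

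The other largest rises over 15 libraries were Hp (haptoglobin), at a slope of 0.48, and Mlana, a melanocyte protein, at 0.47. Mlana was at 43.4 FPKM in AngII replicate 2 and 3.06 FPKM or below elsewhere, and neither gene was called without that library, where the slopes were 0.30 and 0.26. Without it, the largest rises also included Efemp1, an extracellular matrix glycoprotein, at 0.24 (SE 0.03), Cd83, an immune cell surface protein, at 0.23, and Vsig4, a complement receptor of macrophages, at 0.19. Efemp1 was at 14.2 FPKM in AngII replicate 2, inside the 3.75 to 22.1 FPKM of the others.

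The falls were small. Gm24366, a predicted gene without a known role, was called in both fits, at -0.27 (SE 0.04) and -0.29 (SE 0.05). It was at 6.69, 3.40 and 4.94 FPKM in the libraries of lowest score in the vehicle, AngII and AngII + OA groups, each the highest of its group, and at 0.472 FPKM in AngII replicate 2. The reads behind these low levels are not given, so its slopes may rest on few reads. Edn3, an endothelin peptide, at -0.18, Ucn, urocortin, at -0.16, and F630028O10Rik at -0.15 were called over 15 libraries only, with slopes of -0.12, -0.15 and -0.11 without AngII replicate 2.

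The remaining lists held few calls. Cytl1, a secreted protein on both the valve and the endothelial lists, rose with a slope of 0.27 (SE 0.04, limma adjusted p = 0.00648), and it was 1 of 6 valve genes and 1 of 12 endothelial genes tested. Pvalb, a calcium buffer of fast muscle, was 1 of 5 skeletal muscle genes, at 0.16, with a level of 1.99 FPKM or below. Neither was called without AngII replicate 2, where the slopes were 0.24 for Cytl1 (limma adjusted p = 0.0634) and 0.14 for Pvalb (adjusted p = 0.0694). No gene was called in either fit among those for the node and conduction system, smooth muscle, nerve, erythroid cells, fibroblasts, macrophages, T cells, lung epithelium, hypertrophy, fatty acid oxidation, oxidative phosphorylation, or calcium handling and excitation (limma, beside 0.488% and 0.114% of all genes). At an unadjusted p under 0.05 (limma) each held 0 to 4 genes, beside 12.9% and 7.4% of all genes. The most were 4 of 10 hypertrophy genes over 15 libraries (1 without AngII replicate 2) and 4 of 12 fibroblast genes without that library (3 with it). The endothelial list, which held the call of Cytl1, had more. There 7 of 12 genes had an unadjusted p under 0.05 (limma) over 15 libraries, and 3 without AngII replicate 2. Slopes of that list were above 0 for 7 genes and below 0 for 5 over 15 libraries, with Kdr at -0.13. All 20 oxidative phosphorylation genes had slopes below 0 over 15 libraries, 15 of 20 did after scaling to nuclear-encoded genes and 16 after quantile normalization, and 17 were above 0 without AngII replicate 2.

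No gene had slopes on the score that differed between the groups at an adjusted p below 0.05 (limma, score by group; 829 of 13117 at an unadjusted p under 0.05 over 15 libraries and 346 over 14, smallest adjusted p 0.449 and 0.847).

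Because the scores formed separate sets, correlations over samples are given for a family of 10 measures, after centring by group. They cover only the 11 libraries of intermediate score, a subset chosen after seeing the data. Nppa correlated with the score there at r = 0.85 (exact permutation within groups, 2-sided, p = 0.00347, adjusted 0.0203) and rho = 0.818 (p = 0.00231, adjusted 0.0174). Without the 2 libraries farthest from the median score, r was 0.874 in 9 libraries with an exact permutation p of 0.00694, adjusted 0.0521. Msln gave r = 0.902 (exact permutation p = 0.00405, adjusted 0.0203) and rho = 0.909 (p = 0.00347, adjusted 0.0174), and 0.955 without those 2 libraries (exact permutation p = 0.0104, adjusted 0.0521). Dkk3 gave r = 0.804 (exact permutation p = 0.0124, adjusted 0.0415) and rho = 0.818 (p = 0.0171, adjusted 0.0569), and 0.707 without them (exact permutation p = 0.0799, adjusted 0.2). The relations of Nppa, Msln and Dkk3 therefore missed the threshold in 9 libraries. Fewer permutations exist for 9 libraries than for 11, so the p-values are coarser there. From 11 to 9 libraries r was higher for Nppa and Msln and lower for Dkk3. By limma over all genes, Hamp and Mybphl were the 2 genes called in the 11 libraries, and neither is among the 10 measures.

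The other 7 measures did not pass. Exact permutation gave r = 0.0822 and rho = 0.464 for Myl2 (p = 0.816 and 0.19), r = -0.322 and rho = -0.336 for Pln (p = 0.367 and 0.363), and r = 0.321 and rho = 0.427 for Nppb (p = 0.498 and 0.303). For Acta1, skeletal alpha-actin, r was -0.25 and rho -0.182 (exact permutation p = 0.459 and 0.659), and for Adipoq 0.505 and 0.618 (p = 0.249 and 0.107). Ighm gave 0.443 and 0.4 (exact permutation p = 0.212 and 0.287), and the mitochondrially encoded share -0.178 and -0.345 (p = 0.652 and 0.396). Adjusted values of these 7 were 0.268 or higher.

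The last question was whether treatment moved the atrial and ventricular genes. AngII against vehicle gave 197 called genes of 13121 (1.5%), and AngII + OA gave 0 against AngII (0%; 6.6% at an unadjusted p under 0.05) and 0 against vehicle (0%; 3.35%) by limma. None of the 17 atrial and 15 ventricular genes tested was called in any of the 3 comparisons. At an unadjusted p under 0.05, AngII against vehicle held 5 of the atrial and 4 of the ventricular genes (16.6% of all genes), AngII + OA against AngII 0 and 2, and AngII + OA against vehicle 1 and 0. With the score as a covariate the AngII count was 247 (1.88%), 194 of them also called without it, and again no member was called by limma. At an unadjusted p under 0.05 the atrial and ventricular counts were then 7 and 5 in AngII against vehicle (17.7% of all genes), 2 and 2 in AngII + OA against AngII (6.78%), and 3 and 0 in AngII + OA against vehicle (3.65%). The 3 comparisons share groups.

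Nppa was higher by 1.82 log2 units in AngII than in vehicle hearts (SE 0.66, limma adjusted p = 0.178), by 1.76 (SE 0.53, adjusted p = 0.106) with the score as a covariate and by 1.19 (SE 0.53, adjusted p = 0.255) without AngII replicate 2. AngII + OA against AngII gave -1.23 (SE 0.66, adjusted p = 0.737) for Nppa, and -0.60 without that library. For Mybphl the standard error of the AngII difference was 1.12 without the score in the model and 0.26 with it, around differences of 0.16 and 0.02. The first of these had no stable sign, and was -0.62 without AngII replicate 2, -0.49 without vehicle replicate 1 and 0.89 without AngII replicate 5. Myl2 differed by -0.35 (SE 0.21) in AngII against vehicle and by 0.48 (SE 0.21, limma adjusted p = 0.737) in AngII + OA against AngII. These were -0.13 and 0.25 without AngII replicate 2, and 0.01 and 0.21 after quantile normalization. The median difference of the 15 ventricular genes was -0.32 in AngII against vehicle and 0.23 in AngII + OA against AngII, beside 0.07 and -0.05 over all genes, and that of the 17 atrial genes was 0.15 and -0.06. Without AngII replicate 2 the ventricular medians were -0.13 and 0.10 and the atrial ones 0.06 and -0.03.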

How the data were processed

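RNA from 15 mouse ventricle samples (3 groups of 5) was sequenced, per the labels' protocols, after oligo(dT) selection. The authors deposited FPKM per gene for all samples; the submitters' processing notes name HISAT2 2.0.4 and mm8, and counting is not given in the sources used here. FPKM comes as whole reads scaled by gene length for 86.6% of 28866 genes (within 0.02 reads), from which reads were recovered for description; depth was 24470000 to 28270000 mapped fragments per library.

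Values were tested as log2(FPKM + 1) with limma 3.58.1 (R 4.3.3), group and score in the model, in genes with a mean of at least 0.5 FPKM, and adjusted by Benjamini-Hochberg over all genes tested; fold changes on this scale understate low genes. The fit was tested on simulated data: with 200 of 13117 genes changed, it recovered 96.1% at a slope of 0.3 and 69.4% at 0.15 over 15 libraries, and 100.0% and 64.9% without AngII replicate 2. The simulated noise was normal and independent between genes, without group differences, so recovery in the real libraries may be lower. Named genes are the score genes and Nppa, the 8 largest rises and falls among called genes averaging at least 1 FPKM in each fit, the atrial and ventricular lists, up to 4 called members of each other list (or its 2 most abundant) and the 10 measures correlated with the score. Of 36653 identifiers, 36464 had a symbol. The genes, lists and rules were chosen with earlier results of these data known. Alternatives were other pseudocounts, filters, scalings and scores, libraries left out, and a replicate block. The labels do not say whether reads were counted by strand, so overlapping genes cannot be told apart.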

Additional observations from a re-analysis of the deposited data

Results flagged for a closer look

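Within groups of 5, 10 of 72 sets of values had 1 library whose gap to the next was over 0.71 of the group's range (chance flags about 1 in 20 sets of unselected values). The score genes, and the genes named because they were called with the score, were picked partly by the values of AngII replicate 2, so that rate does not apply to them and their values are a description. Values are log2(FPKM + 1). AngII replicate 2 was high for Bmp10 at 5.12 (others 0.01 to 0.66), Mlana at 5.47 (others 0.45 to 0.84) and Vsig4 at 3.57 (others 1.53 to 2.001). The same library was low for Edn3 at 0.41 (others 1.76 to 2.27), F630028O10Rik at 0.23 (others 1.19 to 1.56) and Ucn at 0.98 (others 1.73 to 1.99). Vehicle replicate 1 was low for Myl7 at 1.36 (others 6.87 to 8.82), for the carbonic anhydrase Car3 at 0.21 (others 2.09 to 2.27) and for adipsin, Cfd, at 0.27 (others 2.61 to 3.19). Vehicle replicate 5 was high for Bmp10 at 1.36 (others 0.01 to 0.29). The score itself passed this limit in no group.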

How the results depend on the processing

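The 15-library count of 64 called genes was 36 with all genes above 0 tested, 19 at a mean of at least 5 FPKM, 26 with the score as log2 of Myl7 over Myl2, 24 with the rank within group, 107 without Myl7 in the score and 26 without Bmp10, and 2 in the 11 libraries of intermediate score (chosen after seeing the data, as was leaving out the 3 lowest, which gave 64 calls with 25 of them among the 64 reported). Leaving out 1 library gave 15 to 84. Without AngII replicate 2, the count of 15 was 24 at a pseudocount of 0.1, 6 with all genes above 0, 6 at a mean of at least 5 FPKM, 23 with Nppa in the score, 24 with ranks, 2 without the 3 libraries of lowest score and 2 in the 11, and 3 to 33 leaving out 1 more. The cause was not tested. Mybphl was called under each alternative in both fits, and Hamp under each in the 15-library fit. No tested atrial or ventricular list member was called in any group comparison under any alternative run. Few genes of any kind were called there: in the main fit, 1.5% of all genes in AngII against vehicle and 0% in each AngII + OA comparison.

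Replicate numbers showed no clear pairing of the samples, but a pairing or shared batch by number was not tested. Same-number pairs correlated from -0.35 to 0.43, with 6 of 15 above 0.1, and 1 library correlated best with its own number in both other groups. The pairs of replicate 3 were all positive (0.21, 0.26 and 0.43), and those of replicate 4 were -0.23, -0.35 and 0.34. With the replicate number as a block the counts were 8 over 15 libraries and 1 without AngII replicate 2, and the slope of Nppa without that library turned to -0.0563. In the correlations, Myl2 turned to -0.072 without the 2 libraries farthest from the median score and to -0.0187 with rescaled FPKM, and without the 2 farthest Nppa (0.874), Dkk3 (0.707) and Msln (0.955) missed the threshold. Correlations over all libraries, with or without AngII replicate 2, were not run because the scores form separate sets. With 0 to 5 Bmp10 reads in 7 libraries, ratios to Myl7 there are imprecise.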

Other observations

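Some genes called with the score over 15 libraries belong to none of the lists and are named here after their values were seen. Sbk3 and Sbk2, related kinases, rose with slopes of 0.35 (SE 0.06, limma adjusted p = 0.0109) and 0.20 (SE 0.03, adjusted p = 0.0213). The imprinted growth genes Igf2 and H19 rose with slopes of 0.24 and 0.25, and the binding proteins Igfbp4 and Igfbp5 with 0.19 and 0.17. The complement genes C3 and C4b rose with 0.17 and 0.21. None of these 8 was called without AngII replicate 2, where their slopes were 0.27, 0.17, 0.15, 0.19, 0.12, 0.16, 0.14 and 0.16 in the order named. Pmvk, phosphomevalonate kinase of isoprenoid synthesis, had slopes of 0.17 and 0.16 with and without AngII replicate 2, was called in both fits, and had the smallest standard error of the genes called over 15 libraries (0.0139, limma adjusted p = 4.1e-05).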
